A study of Mus musculus with 10 samples.

Results

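The T cell receptor complex and its coreceptors were followed here in visceral adipose tissue through 10 genes, Cd3e, Cd3d, Cd3g, Cd247, Cd4, Cd8a, Cd8b1, Lck, Lat and Cd2. They were chosen by gene name, with no threshold on their values, and all 10 were found among the 16667 genes of the table of normalized counts and the 29242 genes of the table of TPM (the share of a library that each gene takes, corrected for length). The tissue came from wild-type C57BL/6 mice that were 10 weeks old. In the sham group 5 mice had sham surgery, and in the KPC group 5 mice carried pancreatic tumours placed in the pancreas itself. The abbreviation KPC stands for a widely used mouse model of pancreatic cancer. Both groups shared genotype, strain and age, and neither carried a transgene or deletion according to the labels. No source used here gives the time from surgery to collection, the sex of the mice or the tumour line. The series is concerned with immune cells of the type 2 kind while fat is lost in cancer, and the comparison below asks how the T cell receptor genes stood in the fat of tumour-bearing mice.

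A T cell recognises antigen with a pair of variable receptor chains that cannot signal by themselves. The CD3 chains and the zeta chain carry the signalling motifs, the coreceptors CD4 and CD8 bind the presenting molecule and bring the kinase LCK to the complex, and the adaptor LAT gathers the enzymes that follow. In fat, T cells lie among adipocytes, macrophages and innate lymphoid cells, and helper, cytotoxic and regulatory T cells are all known residents.

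The libraries held 20941242 to 24449863 normalized counts in total, which normalization brings close together, so these totals do not show sequencing depth. Adipocyte genes, the defining markers of the labelled tissue, were at high levels in both groups, with a summed TPM of 6 markers (Adipoq, Plin1, Lep, Cidec, Lpl and Fabp4) of 26100 to 35560 in sham and 24270 to 30140 in KPC mice. Of these 6, Plin1 and Lpl had an unadjusted limma p under 0.05 with a lower level in the KPC mice, against 5.91% of all genes. Their log2 differences were -0.47 and -0.83, and the part of these lower levels in the member values was not tested. KPC mouse 1 stood apart. Its median correlation with the other libraries was 0.908, against 0.939 to 0.959 for the other 9, mitochondrial transcripts were 15.7% of its listed TPM against 26.3% to 33.3%, and its summed red cell TPM was 40710 against 4748 to 20270.

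All members were expressed at a low level. Per length, on the TPM scale, the mean over all 10 mice was 3.60 for Cd247, 2.69 for Cd2, 1.61 for Cd3g, 1.32 for Lck, 1.05 for Lat, 0.787 for Cd3d, 0.771 for Cd3e, 0.767 for Cd4, 0.501 for Cd8a and 0.367 for Cd8b1. Neighbours in this order were close. Cd2 exceeded Cd3g in 9 of 10 mice and Cd3g exceeded Lck in 9 of 10, whereas Cd3d exceeded Cd3e in only 6, and no neighbouring pair kept the same order in all mice. The most abundant, Cd247, was at or above 48.8% of the genes detected by TPM in any mouse, and the least abundant, Cd8b1, at or above 28.5%. Cd8b1 had a mean of 9.44 normalized counts, under the minimum of 10 set for testing, so 9 of the 10 members were tested.

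The tested members leaned towards higher levels in the tumour-bearing mice, but none passed the adjusted threshold. Cd8a, the alpha chain of CD8, had a mean 1.89 times the sham mean on the scale of the fit, Lck 1.72 times and Cd2 1.57 times. The log2 difference, KPC minus sham, was positive for 8 of 9 members, against 46.9% of all 14203 genes tested. An unadjusted limma p under 0.05 with a higher level was found for 3 of 9 members (Cd8a, Cd2 and Lck), against 7.61% of all genes, and with a lower level for 0 of 9, against 5.91%. After Benjamini-Hochberg adjustment over all genes limma called 0 of 9 members and 0.0563% of all genes (0.0493% higher and 0.00704% lower), and the members' adjusted p ran from 0.252 to 0.834. The KPC mice lay wholly above the sham mice for 1 member, Cd8a, against 2.75% of all genes, and wholly below for none, against 1.28%. The median log2 difference over the 9 members was 0.65, against -0.02 over all genes tested, and 6.47% of all genes had a difference at or above 0.65. In bulk tissue, more cells of a type and more RNA per cell cannot be told apart.

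The count of members with an unadjusted p under 0.05 depended on single mice. Without KPC mouse 1 it was again 3, against 7.14% of all genes, and these were again Cd8a, Cd2 and Lck, while 0 were lower, against 5.25%. It was 5 without sham mouse 2, against 6.11% of all genes higher, and 1 without sham mouse 4, against 5.52%. Leaving out KPC mice 1 and 2 together, an alternative chosen after seeing the data because these mice had the most red cell RNA, left 0 of 9 members under that level, against 7.74% of all genes higher, with a median log2 difference of 0.48.

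**Figure D1:**
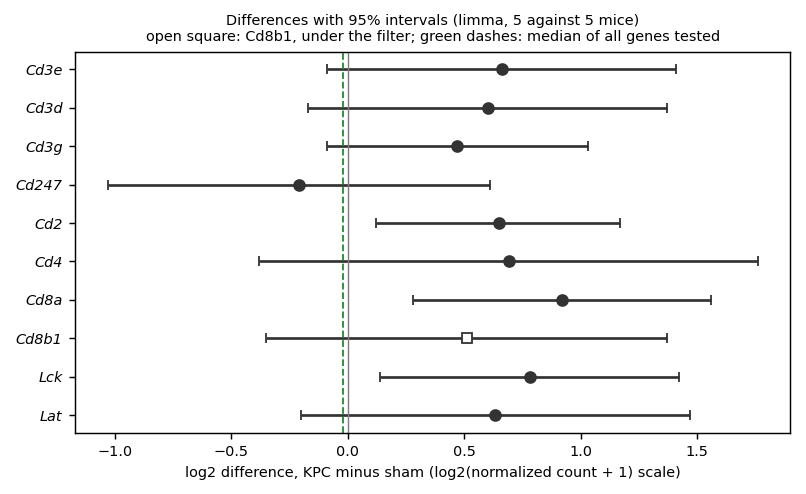
Log2 difference between KPC and sham mice for each of the 10 genes (horizontal axis, log2(normalized count + 1) scale), with 95% intervals from limma over 5 against 5 mice. Points lie between -0.21 for Cd247 and 0.92 for Cd8a, the intervals of Cd8a, Lck and Cd2 lie above 0, and the dashed line marks the median of all genes tested at -0.02.

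The CD3 chains epsilon, delta and gamma, encoded by Cd3e, Cd3d and Cd3g, pair with each other and are needed for the receptor to reach the cell surface. The 3 genes form a cluster of 40056 bases on mouse chromosome 9 (GRCm38, GENCODE vM21), with Cd3g at chr9:44969572-44980431 on the minus strand, Cd3d at chr9:44981786-44987339 on the plus strand and Cd3e at chr9:44998740-45009627 on the minus strand. Cd3g and Cd3d start 1355 bases apart and run in opposite directions. The windows around the starts of this facing pair are shown because these neighbours share the stretch between their starts, and their values follow. Each holds 250 bases before and 50 after the start, from RefSeq on GRCm38.p6, 5′ to 3′ along the gene, with motif matches in capitals (chr9:44981536-44981835 on the plus strand and chr9:44980382-44980681 on the minus strand).

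Cd3d: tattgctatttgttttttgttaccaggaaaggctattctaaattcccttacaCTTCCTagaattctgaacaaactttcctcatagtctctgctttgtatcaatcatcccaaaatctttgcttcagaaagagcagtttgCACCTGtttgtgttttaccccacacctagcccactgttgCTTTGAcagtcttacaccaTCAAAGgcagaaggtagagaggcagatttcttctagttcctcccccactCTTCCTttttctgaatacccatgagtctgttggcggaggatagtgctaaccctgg

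Cd3g: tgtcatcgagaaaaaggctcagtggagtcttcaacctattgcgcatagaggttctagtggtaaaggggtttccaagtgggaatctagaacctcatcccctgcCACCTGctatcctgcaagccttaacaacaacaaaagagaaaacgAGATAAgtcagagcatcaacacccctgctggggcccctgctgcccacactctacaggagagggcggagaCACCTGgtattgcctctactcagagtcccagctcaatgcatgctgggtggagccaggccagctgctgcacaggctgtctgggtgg

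Such windows were held for 7 of the 10 members, 8 in all since Lck has an upstream and a downstream one, and none was used for Cd4, Cd8b1 or Cd2. They were searched on both strands for short core motifs of factor families that act in T cells. The ETS core AGGAAG was in 6 of 8 windows, against 35.4% of all 32851 windows of that length, and the E-box CAGGTG was in 6 of 8, against 20.2%. The RUNX core TGTGGT was in 2, against 16.8%, the TCF core CTTTGA in 2, against 16.0%, and the GATA core AGATAA in 1, against 11.2%. Cd3d held the ETS core at 2 places, the TCF core at 2 and the E-box at 1, and Cd3g held the E-box at 2 and the GATA core at 1. A match is a run of letters in the window and no measure of binding.

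Cd3e had 12.9, 25.9, 12.6, 8.52 and 14.9 normalized counts in sham mice 1 to 5, and 19.8, 17.0, 25.9, 24.9 and 28.1 in KPC mice 1 to 5. Sham mouse 2 reached the level of the KPC mice, and the other 4 sham mice lay below all 5 KPC mice. Its log2 difference was 0.66 ± 0.34 (SE), with a limma p of 0.0786 and an adjusted p of 0.419. Without sham mouse 2 the sham mean fell from 15.0 to 12.2.

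Cd3d had 20.6, 16.4, 15.6, 13.8 and 13.9 normalized counts in the sham mice and 37.5, 31.5, 11.5, 21.0 and 30.6 in the KPC mice. Here 4 KPC mice lay above all sham mice and KPC mouse 3 lay below all of them. For Cd3d the log2 difference was 0.60 ± 0.35 (SE), with a limma p of 0.116 and an adjusted p of 0.475. Cd3g had 19.7, 29.9, 21.6, 15.8 and 25.6 in the sham mice and 27.7, 36.6, 30.6, 29.3 and 30.8 in the KPC mice. Again sham mouse 2 was the highest of its group, at a level within the KPC range, and the other 4 lay below every KPC mouse. The log2 difference of Cd3g was 0.47 ± 0.25 (SE), with a limma p of 0.0916 and an adjusted p of 0.440.

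Counting error was a sizeable share of the spread between mice in these genes. Read as single reads, the mean count of Cd3e would give a counting SD of 0.33 on the log2 scale, and the SD between mice of a group was 0.43. For Cd3d these were 0.31 and 0.48. For Cd3g the SD between mice, 0.26, was no larger than the 0.28 that counting would give. A GENCODE antisense gene, Gm48719, overlaps Cd3e by 3557 bases, and since no source used here gives the strand setting of the counting, its reads cannot be told apart from those of Cd3e.

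Cd247 encodes the zeta chain, which carries most of the signalling motifs of the complex and is also used by natural killer cells with their Fc receptor. It lies at chr1:165788681-165877277 on the plus strand. Its normalized counts were 72.7, 89.6, 145, 54.6 and 119 in the sham mice and 38.2, 124, 138, 64.4 and 68.7 in the KPC mice. The groups overlapped over most of their range, KPC mouse 1 had the lowest value of all, and only 2 KPC mice exceeded the sham median of 89.6. Its log2 difference was -0.21 ± 0.37 (SE), with a limma p of 0.579 and an adjusted p of 0.834, and it was 0.04 without KPC mouse 1. Cd247 was the only tested member with a negative difference. The SD between mice was 0.66 on the log2 scale, against 0.15 from counting alone. The gene shares 12124 bases with Pou2f1 on the opposite strand, a widely expressed transcription factor gene with a mean TPM of 2.19 here, and the part of such shared reads in Cd247 was not tested.

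**Figure D2:**
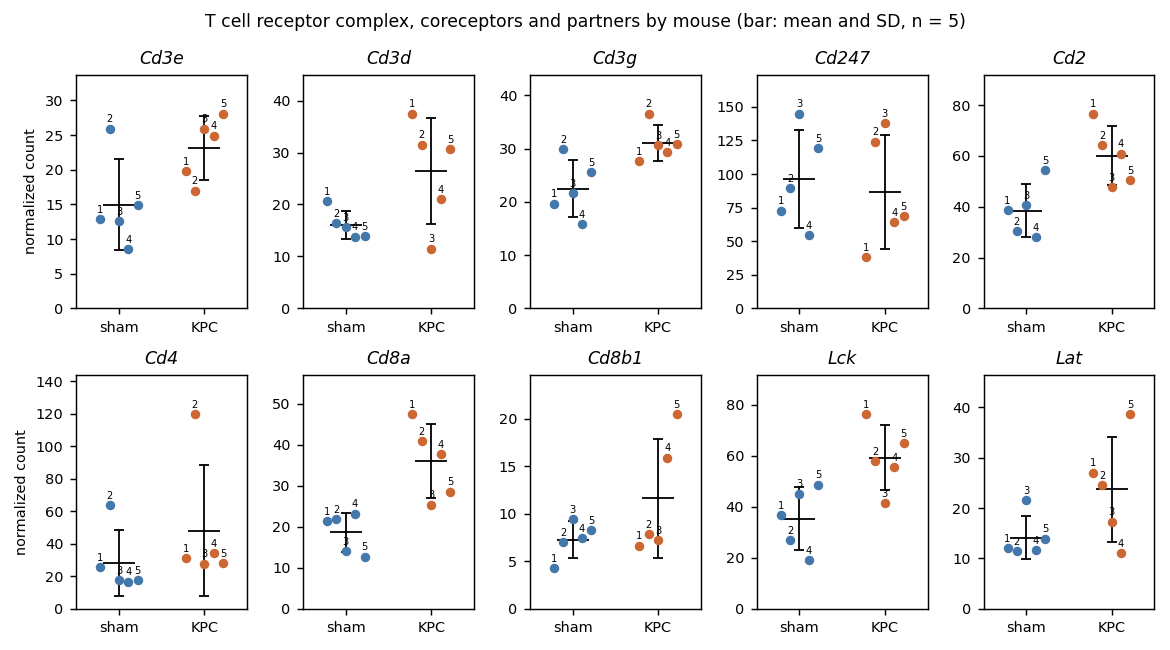
Normalized counts of the 10 genes in each mouse (vertical axes, from 0), with sham mice in blue and KPC mice in orange, numbered within their group, and the mean and SD of 5 mice in black. Cd8a is the only gene whose 5 KPC mice all lie above the 5 sham mice, and mouse 2 of each group stands far above the others for Cd4.

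CD8 is a dimer whose alpha chain, Cd8a, is carried by cytotoxic T cells and by some dendritic cells. Its beta chain, Cd8b1, is more closely tied to cytotoxic T cells. Both genes lie on chromosome 6, Cd8b1 at chr6:71322788-71337494 and Cd8a at chr6:71373427-71379173, both on the plus strand and 35933 bases apart. Cd8a had 21.4, 21.8, 14.1, 23.2 and 12.7 normalized counts in the sham mice and 47.6, 40.9, 25.4, 37.7 and 28.6 in the KPC mice. Every KPC mouse was above every sham mouse, although KPC mouse 3 at 25.4 was near sham mouse 4 at 23.2. For Cd8a the log2 difference was 0.92 ± 0.29 (SE), with a limma p of 0.00921 and an adjusted p of 0.252, a fold of 1.89 with a 95% interval of 1.21 to 2.95. In TPM the groups were likewise apart but by less, with a lowest KPC value of 0.4474 against a highest sham value of 0.4472. Without KPC mouse 1 the log2 difference was 0.81 with an adjusted p of 0.300 in limma.

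The window at the start of Cd8a (chr6:71373177-71373476, plus strand) is shown because it is the member whose groups did not overlap. It holds none of the 5 motifs, so no letters are in capitals, which says only that these letters are not in this window.

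Cd8a: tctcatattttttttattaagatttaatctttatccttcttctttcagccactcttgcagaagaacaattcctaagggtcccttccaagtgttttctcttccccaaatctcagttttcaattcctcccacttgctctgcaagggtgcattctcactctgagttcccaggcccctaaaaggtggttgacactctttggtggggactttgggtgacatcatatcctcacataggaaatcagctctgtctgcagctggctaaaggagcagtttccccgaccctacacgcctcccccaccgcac

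Cd8b1 had 4.30, 7.03, 9.39, 7.40 and 8.29 normalized counts in the sham mice and 6.63, 7.86, 7.18, 15.9 and 20.5 in the KPC mice. KPC mice 4 and 5 were above all sham mice and the other 3 lay among them, so the CD8 beta chain did not repeat the separation seen for the alpha chain. Fitted without the filter on low values, its log2 difference was 0.51 ± 0.39 (SE), with a limma p of 0.220 and an adjusted p of 0.615. The TPM ratio of Cd8a to Cd8b1 ran from 0.727 to 2.36 in the sham mice and from 0.673 to 3.42 in the KPC mice.

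Conventional dendritic cell markers were read because some dendritic cells carry CD8 alpha, and they were also at higher sums in the KPC mice. Their summed TPM over 8 genes was 27.2 to 42.6 in sham and 49.0 to 80.9 in KPC mice without overlap. Of the 8 tested, 3 had an unadjusted limma p under 0.05, all higher, against 7.61% of all genes. Cd209a, a lectin of these cells, had a TPM of 14.4 ± 3.33 (SD, n = 5) in sham and 25.2 ± 3.97 in KPC mice. Clec9a, a receptor of the cross-presenting subset, had 0.966 ± 0.325 and 1.39 ± 0.331, and Batf3 had 3.05 ± 0.334 and 7.94 ± 4.22. The sum does not tell dendritic cells with CD8 alpha from those without it. The part of dendritic cells in the Cd8a difference was not tested.

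Cd4, the coreceptor of helper and regulatory T cells that some dendritic cells and innate lymphoid cells also carry, lies at chr6:124864692-124888221 on the minus strand. It had 25.6, 63.6, 17.4, 16.7 and 17.8 normalized counts in the sham mice and 31.2, 119.9, 27.7, 34.1 and 27.9 in the KPC mice. Mouse 2 of each group stood far above the rest, and the other 4 sham values all lay below the other 4 KPC values. For Cd4 the log2 difference was 0.69 ± 0.49 (SE), with a limma p of 0.187 and an adjusted p of 0.555. The KPC mean was 48.2 ± 40.2 (SD, n = 5), and 30.2 without KPC mouse 2. The sham mean was 28.2 ± 20.1 (SD, n = 5), and 19.4 without sham mouse 2. The SD between mice was 0.84 on the log2 scale, against 0.23 from counting, and was the largest of all members.

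Without KPC mouse 2 the log2 difference of Cd4 was 0.29, with a limma p of 0.487 and an adjusted p of 0.789. Without sham mouse 2 it was 1.02, with a limma p of 0.0443 and an adjusted p of 0.436. Leaving out mouse 2 of both groups, an alternative chosen after seeing the data, gave a log2 difference of 0.63 for Cd4, with a limma p of 0.0653 and an adjusted p of 0.505. With these 4 against 4 mice the KPC group lay wholly above the sham group for 4 of the 9 tested members, Cd3e, Cd3g, Cd4 and Cd8a, and for 4.18% of all genes. Without sham mouse 2 alone it did so for 4 of 9 and for 3.13% of all genes. Sham mouse 2 was chosen for leaving out after it was seen to be high in Cd4, and it was also the sham mouse that overlapped the KPC mice in Cd3e and Cd3g, so nothing is read from this rise. With mouse 2 of both groups left out, 2 of 9 members, Cd3e and Cd8a, had an unadjusted limma p under 0.05. The share of all genes higher at that p was 5.77%. Cd3e then had a log2 difference of 0.97 with an adjusted p of 0.399, so the adjusted threshold was not reached there either.

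Lck is the kinase that phosphorylates the CD3 and zeta chains, in T cells and also in natural killer cells. It lies at chr4:129548344-129573641 on the minus strand and has an upstream and a downstream start. Its normalized counts were 36.6, 27.0, 45.2, 19.1 and 48.7 in the sham mice and 76.5, 57.8, 41.5, 55.5 and 65.0 in the KPC mice. All KPC mice but KPC mouse 3 lay above all sham mice. The log2 difference was 0.78 ± 0.29 (SE), with a limma p of 0.0214 and an adjusted p of 0.299. Without KPC mouse 1 it was 0.68 with an adjusted p of 0.398 in limma.

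The windows at both starts of Lck (chr4:129573592-129573891 and chr4:129558323-129558622, minus strand) are shown because it is the member with alternative starts, which the gene-level values sum. The upstream window holds the ETS core at 3 places and the RUNX core and the E-box at 1 each, and the downstream window holds the ETS core and the E-box at 1 each, in capitals.

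Lck upstream: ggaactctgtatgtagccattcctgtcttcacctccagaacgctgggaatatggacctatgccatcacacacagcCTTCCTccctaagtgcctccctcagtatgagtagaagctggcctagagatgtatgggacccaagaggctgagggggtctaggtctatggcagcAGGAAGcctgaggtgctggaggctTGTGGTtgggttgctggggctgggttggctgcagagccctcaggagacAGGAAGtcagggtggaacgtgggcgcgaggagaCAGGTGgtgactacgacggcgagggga

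Lck downstream: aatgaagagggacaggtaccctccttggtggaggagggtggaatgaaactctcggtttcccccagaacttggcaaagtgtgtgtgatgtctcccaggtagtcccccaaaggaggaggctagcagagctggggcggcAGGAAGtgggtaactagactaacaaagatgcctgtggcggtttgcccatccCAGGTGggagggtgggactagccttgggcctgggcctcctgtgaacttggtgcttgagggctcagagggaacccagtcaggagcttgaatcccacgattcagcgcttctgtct

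Lat, the membrane adaptor that is phosphorylated next and that mast cells and platelets also use, lies at chr7:126363824-126369570 on the minus strand. It had 12.0, 11.5, 21.6, 11.7 and 13.9 normalized counts in the sham mice and 27.0, 24.6, 17.3, 11.0 and 38.7 in the KPC mice. Sham mouse 3 was far above the other sham mice, 3 KPC mice exceeded it, and KPC mouse 4 lay below every sham mouse. For Lat the log2 difference was 0.63 ± 0.38 (SE), with a limma p of 0.123 and an adjusted p of 0.484. The summed TPM of 6 platelet markers was 135 to 195 in sham and 144 to 423 in KPC mice. Most of that sum was Pf4, with 160 ± 28.7 (SD, n = 5) in sham and 219 ± 111 in KPC mice. Ppbp, another of the 6, had 1.40 ± 0.294 and 3.41 ± 1.66 without overlap, with an adjusted p of 0.180 in limma. All 3 platelet markers tested had a positive difference. The summed TPM of 7 mast cell markers was 45.8 to 68.6 in sham and 32.8 to 79.5 in KPC mice. The part of either cell type in the Lat values was not tested.

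Cd2, an adhesion receptor of T and natural killer cells that binds CD48 on other leukocytes in the mouse, lies at chr3:101275899-101287939 on the minus strand. It had 38.8, 30.4, 40.7, 28.0 and 54.4 normalized counts in the sham mice and 76.7, 64.3, 47.8, 60.9 and 50.5 in the KPC mice. The groups overlapped only through sham mouse 5, which lay above KPC mice 3 and 5. The log2 difference was 0.65 ± 0.24 (SE), with a limma p of 0.0200 and an adjusted p of 0.297. Its ligand gene Cd48 had a TPM of 8.96 ± 1.49 (SD, n = 5) in sham and 18.4 ± 9.69 in KPC mice.

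Ratios within a mouse were used to ask whether the members changed relative to each other or to other leukocyte genes, over 8 ratios on the log2 scale. None passed an exact two-sided permutation test over the 252 ways to assign the mice, adjusted over the 8 ratios. The smallest p this design allows is 0.00794. The ratio of Cd8a to Cd4 was -0.41 ± 0.70 (SD, n = 5) in sham and -0.18 ± 0.80 in KPC mice, a difference of 0.23 with a 95% interval of -0.91 to 1.29 and an exact adjusted p of 0.804. The data exclude none of the shifts inside this interval. The difference was 0.26 for Cd8a to Cd3e, with an interval of -0.73 to 1.26, and 0.03 for Cd4 to Cd3e, with an interval of -0.89 to 1.35. Without KPC mouse 1 the difference was 0.04 for Cd8a to Cd4 and 0.10 for Cd8a to Cd3e.

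Of the 8 ratios, those of Cd247 to Cd3e and of Cd3e to the B cell gene Cd79a differed most. The log2 ratio of Cd247 to Cd3e was 2.61 ± 0.62 (SD, n = 5) in sham and 1.74 ± 0.80 in KPC mice, a difference of -0.87 with an interval of -1.99 to 0.24, an exact permutation p of 0.0714 and an adjusted p of 0.286. KPC mice 1, 4 and 5 lay below all sham mice in this ratio. Per length, Cd247 was 3.35 to 11.2 times Cd3e in sham and 1.88 to 7.14 times in KPC mice. The log2 ratio of Cd3e to Cd79a, a signalling chain of the B cell receptor, was -1.13 ± 0.94 in sham and -0.14 ± 0.35 (SD, n = 5) in KPC mice, a difference of 0.99 with an interval of -0.14 to 1.85 and the same exact p of 0.0714, adjusted 0.286. Sham mouse 2, at 0.45, was above all KPC mice in that ratio, and the other sham mice were below all of them. Without sham mouse 2 the difference was 1.38, with an exact permutation p of 0.00794 and an adjusted p of 0.0635. Since only that mouse overlapped the KPC mice, leaving it out sets the groups fully apart, and nothing is read from this p.

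Set against leukocyte genes, Cd3e had ratios slightly lower in the KPC mice, within the error. The log2 ratio of Cd3e to Ptprc, which encodes CD45 and is carried by all leukocytes, was -5.44 ± 0.54 in sham and -5.67 ± 0.78 (SD, n = 5) in KPC mice, a difference of -0.23 with an interval of -1.31 to 0.74 and an exact adjusted p of 0.804. The difference for Cd3e to Adgre1, the macrophage gene for F4/80, was -0.20 with an interval of -1.18 to 0.72 and the same exact adjusted p. KPC mouse 1 had the lowest ratio of Cd3e to either gene, and without it the differences were 0.05 and 0.00. Lat to Cd3e differed by -0.03, with an interval of -1.15 to 1.07.

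**Figure D3:**
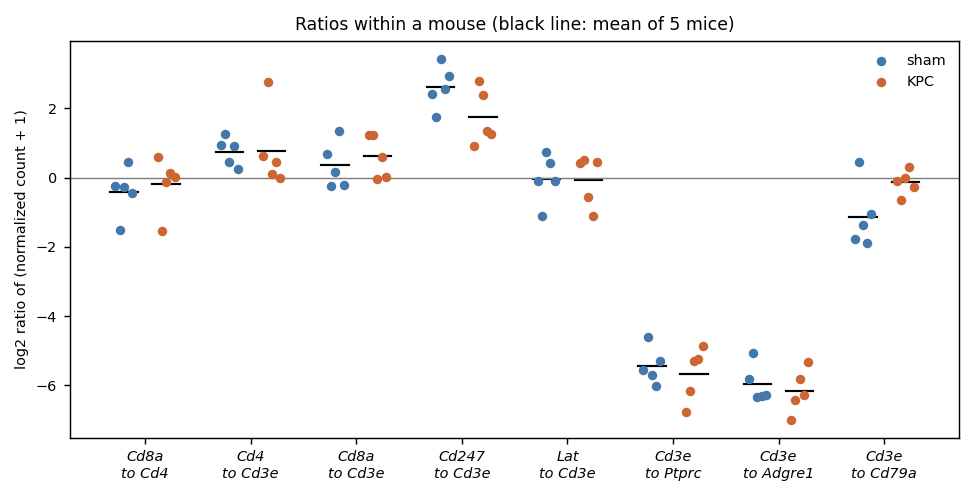
Log2 ratio of the first to the second gene within each mouse (vertical axis, log2 of normalized count + 1), with sham mice in blue, KPC mice in orange and the mean of 5 mice as a line. The groups overlap in all 8 ratios, and the ratio of Cd4 to Cd3e in KPC mouse 2 stands alone at 2.75.

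With the group means removed, the correlations between members across the 10 mice went in both directions. Of the 36 pairs of tested members 23 had a positive correlation, with a median r of 0.10. This is a description over 10 mice, and the members in a mouse share its library depth and cell makeup. Counting error pulls r towards 0 and was a sizeable share of the spread in the CD3 genes. A low r therefore does not show that members vary apart. The highest r was 0.86, between Lck and Cd2, and the lowest was -0.70, between Cd247 and Cd8a. Cd3d and Cd8a had an r of 0.56, Cd4 and Cd8a 0.44, and Cd3e and Lck 0.07. Among 12143 genes with a mean of at least 50 normalized counts, those most like Cd3e by r over the 10 mice were Whamm (0.93), Zfp64 (0.91), Zfp248 (0.87), Myo9a (0.86), Arap3 (0.86) and Resf1 (0.86). Their own log2 differences between the groups ran from -0.26 for Zfp248 to 0.41 for Resf1, and the median r with Cd3e over all ranked genes was 0.01. These genes were picked as the highest of 12143 values over only 10 mice, so nothing is read from their likeness to Cd3e.

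Other genes of the receptor pathway were described by 8 lists that hold 83 genes, 81 of them listed with TPM and 61 tested. Of these 61, 25 had an unadjusted limma p under 0.05 with a higher level in the KPC mice, against 7.61% of all genes. A lower level at that p was found for 0, against 5.91%, and 55 had a positive difference, against 46.9%. None passed the adjusted threshold, and the lowest adjusted p was 0.128, for Ptpn22. Without KPC mouse 1 the 25 became 18, against 7.14% of all genes. Many of these genes are also expressed by macrophages, dendritic cells or natural killer cells. The summed TPM of 10 macrophage markers was 532 to 851 in sham and 926 to 2863 in KPC mice. Of these 10, 9 had an unadjusted limma p under 0.05, all higher, against 7.61% of all genes. The part of macrophages, dendritic cells or natural killer cells in the list counts was not tested.

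The constant chains of the receptor itself were partly below the filter. Trbc2, a beta constant chain, had a TPM of 3.48 ± 0.578 (SD, n = 5) in sham and 5.51 ± 1.49 in KPC mice, a log2 difference of 0.65 ± 0.28 (SE) with an adjusted p of 0.344 in limma. Trbc1, the other beta constant chain, had 1.89 ± 0.926 and 2.45 ± 0.855, and the gamma constant chain Trgc1 had 0.829 ± 0.425 and 0.845 ± 0.420. Trac, the alpha constant chain, was listed at 0 in 8 of 10 mice. Of the 3 tested chains 1, Trbc2, had an unadjusted limma p under 0.05, with a higher level, against 7.61% of all genes. Without KPC mouse 1 none had, against 7.14% of all genes higher, although the log2 difference of Trbc2 was 0.66 there.

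Among kinases and adaptors that act next to LCK and LAT, 7 of 12 tested had an unadjusted limma p under 0.05, all higher. The share of all genes was 7.61%, and the median log2 difference over the 12 was 0.66. Without KPC mouse 1 the count was 4 of 12, against 7.14% of all genes. Fyb, an adaptor of T and myeloid cells, had a TPM of 7.87 ± 2.17 (SD, n = 5) in sham and 16.2 ± 7.03 in KPC mice. Vav1, an exchange factor of all blood cells, had 2.88 ± 0.410 and 6.14 ± 4.26. Trat1, an adaptor bound to the receptor, was listed at 0 in all 10 mice.

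Among brakes of the receptor 3 of 9 tested had an unadjusted limma p under 0.05, all higher, against 7.61% of all genes. The median log2 difference over the 9 was 0.13. Ptpn22, a phosphatase that acts on LCK, had a TPM of 0.913 ± 0.144 (SD, n = 5) in sham and 2.12 ± 0.860 in KPC mice without overlap, a log2 difference of 1.15 ± 0.27 (SE). Ptpn6, a phosphatase of all blood cells, had 8.05 ± 1.64 and 16.7 ± 11.2, and the ubiquitin ligase gene Cblb had 3.70 ± 0.410 and 4.39 ± 0.708. Pag1, a membrane adaptor that recruits the inhibitory kinase CSK, had a log2 difference of -0.26 ± 0.19 (SE).

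Costimulators and adhesion partners had 4 of 10 tested at an unadjusted limma p under 0.05, all higher, against 7.61% of all genes. The median log2 difference over the 10 was 0.52. Without KPC mouse 1 the count was 3 of 10, against 7.14% of all genes, with a median of 0.27. Cd28, the main costimulatory receptor of T cells, had a TPM of 0.234 ± 0.107 (SD, n = 5) in sham and 0.393 ± 0.0714 in KPC mice. Its ligand gene Cd86, carried by antigen-presenting cells, had 4.02 ± 0.813 and 6.75 ± 2.90, and the integrin chain gene Itgal had 1.49 ± 0.211 and 2.59 ± 0.636. Phosphatase and surface antigens had 3 of 5 at that p, all higher, against 7.61% of all genes. Ptprc was at 8.03 ± 0.710 and 15.3 ± 6.19, Cd7 at 0.548 ± 0.163 and 2.05 ± 1.08, and Cd52 at 41.6 ± 4.25 and 104 ± 86.7. KPC mouse 1 weighed on the last of these, and the log2 difference of Cd52 was 1.07 with it and 0.66 without it.

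Of regulators of the T lineage 2 of 10 tested had an unadjusted limma p under 0.05, all higher, against 7.61% of all genes. The median log2 difference over the 10 was 0.27. Runx3, a regulator of the cytotoxic lineage, had a TPM of 0.326 ± 0.0817 (SD, n = 5) in sham and 0.641 ± 0.339 in KPC mice. Ets1 had 15.3 ± 0.889 and 17.1 ± 1.84, Tcf7 1.26 ± 0.377 and 1.54 ± 0.268, and Gata3, a regulator of type 2 helper cells and innate lymphoid cells, 0.387 ± 0.134 and 0.532 ± 0.0920. Genes of naive and memory traffic had 3 of 9, against 7.61% of all genes, and 2 of 9 without KPC mouse 1, against 7.14%. The chemokine receptor Cxcr3 was at 1.50 ± 0.291 and 2.58 ± 0.998. S1pr1, the receptor for exit from lymphoid tissue that endothelium also carries, was at 43.4 ± 5.44 and 65.0 ± 23.5. Cytokine receptors had 2 of 3, against 7.61% of all genes, with a median of 0.55. Without KPC mouse 1 they had 1 of 3, against 7.14%, with a median of 0.35. Il2rb, the shared beta chain for interleukins 2 and 15, was at 0.982 ± 0.201 and 1.69 ± 0.473.

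**Figure D4:**
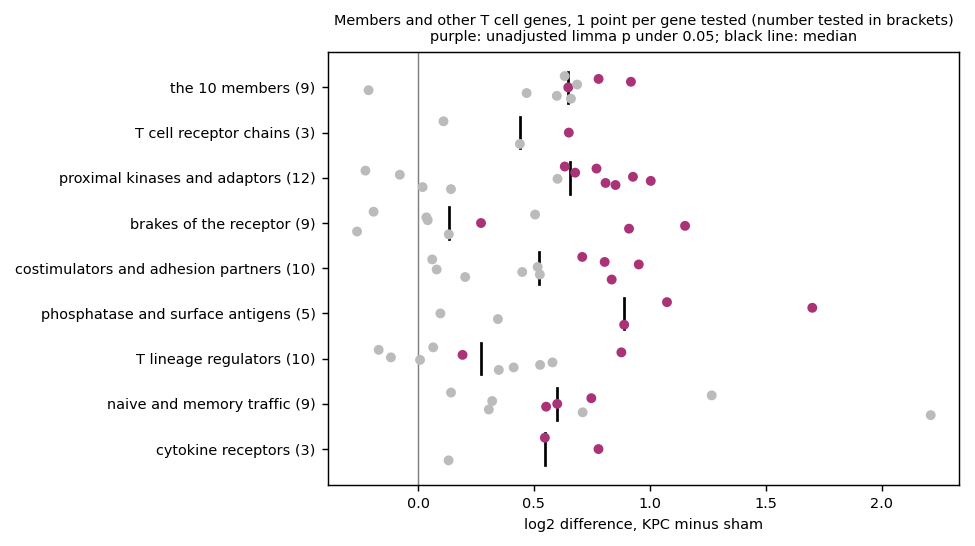
Log2 difference between KPC and sham mice (horizontal axis) for each gene tested, by list, with the number tested in brackets, purple points for an unadjusted limma p under 0.05 and a black line at each list's median. The 9 tested members have a median of 0.65 and the lists have medians from 0.13 for the brakes to 0.89 for phosphatase and surface antigens.

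Markers of other cells that share member genes were read beside the T cell markers. The summed TPM of 6 T cell markers, 3 of them members, was 5.87 to 7.34 in sham and 7.70 to 11.3 in KPC mice, so the groups did not overlap. Trbc2 was a large part of that sum, and its own groups overlapped, at 2.64 to 4.16 in sham and 3.28 to 7.31 in KPC mice. Of 5 T cell markers tested 1, Trbc2, had an unadjusted limma p under 0.05, with a higher level, against 7.61% of all genes. Without KPC mouse 1 there were 0, against 7.14% of all genes higher. Natural killer cells share Cd247, Lck and Cd2 with T cells, and the sum over 10 of their markers was 6.16 to 11.9 in sham and 11.3 to 23.6 in KPC mice. Of 7 tested 1, Klrb1c, had an unadjusted limma p under 0.05, with a higher level, against 7.61% of all genes. It had a TPM of 0.380 ± 0.131 (SD, n = 5) in sham and 0.984 ± 0.258 in KPC mice. The sum over 7 B cell markers was 5.37 to 8.98 in sham and 7.71 to 13.4 in KPC mice. Of 5 tested 3 had a positive difference, against 46.9% of all genes. Among them Blnk, an adaptor that macrophages also express, had a log2 difference of 1.18, Cd79b 0.32, Cd79a -0.33 and Ms4a1 -0.34. Of 5 thymocyte genes, Rag1 and Rag2 were listed at 0 in all mice, and Dntt and Ptcra reached at most 0.0597 and 0.105 TPM. The fifth, Cd1d1, had a TPM of 363 ± 47.9 (SD, n = 5) in sham and 244 ± 51.8 in KPC mice. Its groups did not overlap, with a log2 difference of -0.56, a limma p of 0.00245 and an adjusted p of 0.171. Red cell markers summed to 4748 to 12870 in sham and 8549 to 40710 in KPC mice, with KPC mice 1 and 2 highest, and the part of blood in the member values was not tested.

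**Figure D5:**
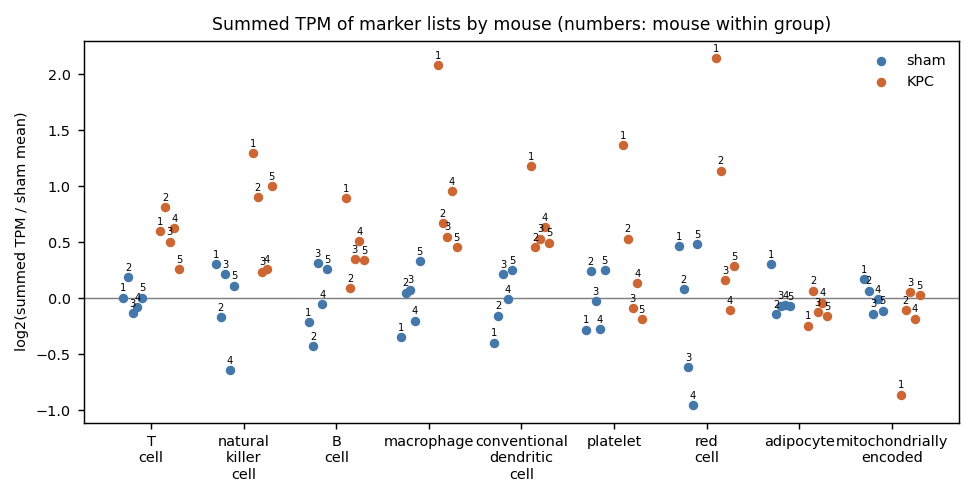
Summed TPM of marker lists in each mouse relative to the sham mean (vertical axis, log2), with sham mice in blue and KPC mice in orange, numbered within their group. The T cell sum is above the highest sham mouse in all 5 KPC mice, and KPC mouse 1 is the highest for macrophage, dendritic, natural killer, B cell, platelet and red cell lists and the lowest for mitochondrially encoded genes.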

How the data were processed

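RNA from visceral adipose tissue of 10 mice was sequenced, 5 per group, and groups and mouse numbers came from the labels. Per the labels' protocols, frozen tissue was extracted with an RNeasy Plus kit and sequenced at Genewiz with Illumina protocols. The authors deposited gene counts that they had normalized, treated here as a continuous signal, and a table of TPM. Salmon, DESeq, DESeq2 and mm10 were used per the submitters' processing notes, with tool versions and the strand setting not given in the sources used here. Scaling each library to whole reads made at most 31.0% to 47.3% of values up to 30 whole within 0.05, so no count model was fitted.

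Genes with a mean of at least 10 normalized counts entered limma 3.58.1 (R 4.3.3, variance trend) on log2(normalized count + 1), which understates changes of low genes, adjusted by Benjamini and Hochberg over 14203 genes with a threshold of 0.05. The fit was tested on simulated data in which only genes with a mean of at least 50 normalized counts were changed. Of the tested members only Cd247 reaches that mean, so the simulation does not show how well changes in the others are found. Ratios were tested by exact permutation in Python 3.11.15, and their intervals invert that test. Labels give separate mice, so p-values measure the spread between mice. Members, lists and tests were chosen with earlier results of these data known. Of each list the 4 genes with the smallest p were named, beside genes of the ratios and the 6 most like Cd3e. Further genes, below the filter or in a role the text turns on, were named after their values were seen. Trdc, Tcrg-C1 and Scart1 were not analysed here, and some named list genes are not reported here. Coordinates are from GENCODE vM21.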

Additional observations from a re-analysis of the deposited data

Results flagged for a closer look

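In 4 of 36 groups of 5 mice examined (10 genes and 8 ratios in each group), the highest value lay apart from the other 4 by more than 0.71 of the whole range, and chance alone gives this in about 1 in 20 groups. Cd4 was at 63.6 normalized counts in sham mouse 2, where the next sham mouse had 25.6. Cd4 was at 119.9 in KPC mouse 2, where the next KPC mouse had 34.1. The log2 ratio of Cd4 to Cd3e was 2.75 in KPC mouse 2, where the next had 0.63. Lat was at 21.6 in sham mouse 3, where the next sham mouse had 13.9.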

How the results depend on the processing

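No tested member passed the adjusted threshold under any alternative run for it, where the lowest adjusted p was 0.163 (Cd2, limma), and 8 of 9 kept the sign of their difference throughout. Cd247 ran from -0.42 to 0.04 when each mouse was left out, with the positive value in the absence of KPC mouse 1. Calls over all genes, 7 higher and 1 lower, were 4 higher on TPM with a pseudocount of 0.1. On TPM with a pseudocount of 1 they were 2 higher and 0 lower, and the members' median was 0.28. Without the variance trend they were 2 higher, with 5 members at an unadjusted p under 0.05. The share of all genes at that p was not computed for this fit, so nothing is read from that count. Weights per mouse gave 172 higher and 28 lower. With a minimum mean of 50 only Cd247 was left among the members, so 0 had an unadjusted p under 0.05, 0 lacked overlap and the median was -0.21, by construction. The ratio of Lat to Cd3e was 0.02 on TPM.

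Leaving out each mouse in turn gave 1 to 66 genes called higher and 1 to 4 lower, 1 to 5 members at an unadjusted p under 0.05, 1 to 4 without overlap and a median of 0.55 to 0.72. The 5 members came without sham mouse 2, against 6.11% of all genes higher, and the 1 member without sham mouse 4, against 5.52%. The 4 members without overlap also came without sham mouse 2, against 3.13% of all genes. The most calls, 66, came without KPC mouse 1. The ratio differences ran from -0.04 to 0.57 for Cd8a to Cd4, -0.46 to 0.22 for Cd4 to Cd3e, -0.30 to 0.24 for Lat to Cd3e, -0.43 to 0.05 for Cd3e to Ptprc, -0.41 to 0.02 for Cd3e to Adgre1, 0.10 to 0.51 for Cd8a to Cd3e, -1.14 to -0.67 for Cd247 to Cd3e and 0.80 to 1.38 for Cd3e to Cd79a. Cd4 to Cd3e was -0.05, -0.10 and -0.46 when sham mouse 3, sham mouse 5 or KPC mouse 2 was left out. Lat to Cd3e was 0.16, 0.08, 0.10 and 0.24 without sham mice 3 and 4 and KPC mice 3 and 4. Cd3e to Adgre1 was 0.00 without KPC mouse 1. Of the alternatives added after seeing the data, leaving out mouse 2 of both groups gave 3 genes called higher and 4 members without overlap. The share of all genes without overlap, KPC above, was 4.18% there. Leaving out KPC mice 1 and 2 gave 31 higher, 5 lower and 0 members at an unadjusted p under 0.05. The share of all genes higher at that p was 7.74% there. The causes were not tested.

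With the replicate block 3 genes were called higher, and with the number that opens the sample titles as a block also 3, and no member's adjusted call changed. Mice with the same number deviated together with correlations of 0.07, 0.19, 0.01, 0.02 and 0.17, and only numbers 2 and 5 matched their own number best, so the numbers were not taken as a pairing. Counts of Cd8b1 were too low for the main test.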

Other observations

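Variable segments of the receptor were present in the table of TPM beside the constant chains. Of 136 segments listed, 90 of the alpha, 34 of the beta, 7 of the gamma and 5 of the delta locus, 50 were above 0 in any mouse. The number above 0 was 9 to 13 in the sham mice and 11 to 19 in the KPC mice. Trdv4, a delta segment, was the only one above 0 in all 10 mice, with a mean TPM of 1.39, a range of 0.763 to 2.01 in sham and 0.709 to 2.10 in KPC mice. Trbv3, a beta segment, was above 0 in 9 mice, at 0 to 1.09 in sham and 0.268 to 1.12 in KPC mice. Trbv13-2 reached 3.54 in a sham mouse and was at 0 in 3 of the 10 mice.

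Markers of rarer lymphoid cells gave values without a call. The summed TPM of 8 markers of group 2 innate lymphoid cells was 9.68 to 12.4 in sham and 7.26 to 13.5 in KPC mice. Rora was a large part of that sum, with 7.11 ± 0.368 (SD, n = 5) in sham and 6.06 ± 1.90 in KPC mice. Il5 and Il13 were near 0, with means of 0.0788 and 0.143 in sham and 0.0393 and 0.0443 in KPC mice. Of 5 tested 0 had an unadjusted limma p under 0.05, against 7.61% of all genes higher and 5.91% lower. Foxp3, the regulator of regulatory T cells, had a TPM of 0 to 0.0546 in sham and 0.0183 to 0.172 in KPC mice, below the level tested. Markers of lymph node stroma and follicles summed to 33.4 to 134.8 in sham and 45.3 to 103.0 in KPC mice.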
